A study of Homo sapiens with 4 samples.

Results

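Interferon response and antigen processing genes are the genes that cells switch on when they sense viral RNA or receive an interferon, and those that cut peptides and load them on class I molecules. The 44 genes were listed by symbol, and each was read by its brightest probe set that carries a single gene symbol. RIGI is the gene formerly named DDX58. Of the 44, 43 were measured, out of 19775 genes with such a probe set. For STAT2 no probe set carried the symbol in the annotation used here, and it was not analysed here. The values come from 4 HG-U133 Plus 2.0 arrays of Jurkat, a cell line from a human T-cell leukemia, 24 h after transfection with 100 nM of a pool of siRNAs. In 2 arrays the pool was directed against LEF1 (siLEF1), and in 2 it was non-targeting (siNT). The labels call the arrays of a group biological replicates. Both groups received siRNA with the same transfection reagent, and non-transfected cells were not analysed here. The comparison therefore asks whether the siRNA pools differ in innate sensing and not whether transfection itself was sensed. The siLEF1 pool targets LEF1 and the siNT pool does not. A difference in sensing of the pools and an effect of lower LEF1 therefore cannot be told apart here. All values come from 1 cell line, and in bulk RNA a smaller share of responding cells and less RNA per cell cannot be told apart.

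Double-stranded RNA in the cytoplasm is bound by the helicases encoded by RIGI and IFIH1, and in endosomes by the receptor encoded by TLR3. These sensors activate the factors encoded by IRF3 and IRF7, which start transcription of interferon genes. Secreted interferon then signals through its receptor to a complex that holds IRF9 and binds a short DNA motif, the interferon-stimulated response element, in front of its target genes. The targets include RNA-binding and RNA-cleaving enzymes, inhibitors of viral entry and release, and the immunoproteasome and peptide transporter of antigen processing. Synthetic double-stranded RNA can trigger the same sensors, and for that reason these genes are watched in siRNA experiments.

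The element was searched on both strands as the letters GAAA, any 2 bases and GAAA again, which read TTTC, any 2 bases and TTTC on the other strand, in promoter windows that run from 250 bases before to 50 after each transcription start (RefSeq, GRCh38.p14). A second motif, the gamma activated site with the letters TTC, any 3 bases and GAA, reads the same on both strands. Counted per window, 4 of its 14 matches in these genes share bases with a response element, in 3 genes. The site in IFI27 lies in overlapping windows and is counted in each. Windows were found for 36 of the 44 genes, not including IRF3, IRF7, OAS2, OASL, IFIT2, USP18, MX2 and TRIM22. At least 1 window held the response element letters in 26 of the 36 genes (72.2%), against 4.38% of all 27305 genes with a window. The gamma activated site letters were found in 11 of the 36 (30.6%), against 9.38% of all genes. Neither motif was found in 6 of the 36 genes.

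The windows of the 3 genes that hold a match and have the smallest p are shown because 2 of the genes were lower and 1 was higher in value in siLEF1 cells, while all carry the same kind of element. They are ISG20 (chr15:88638766-88639065, plus strand), the upstream window of IFIT3 (chr10:89327747-89328046, plus strand) and BST2 (chr19:17405581-17405880, minus strand). Each is written 5′ to 3′ along the gene, and capitals mark the response element letters.
ISG20: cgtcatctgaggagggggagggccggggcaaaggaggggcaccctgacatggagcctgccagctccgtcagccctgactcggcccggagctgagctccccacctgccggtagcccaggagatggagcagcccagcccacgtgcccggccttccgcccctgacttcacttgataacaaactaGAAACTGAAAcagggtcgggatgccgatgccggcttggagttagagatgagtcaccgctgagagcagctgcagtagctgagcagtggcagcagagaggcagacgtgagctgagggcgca
IFIT3: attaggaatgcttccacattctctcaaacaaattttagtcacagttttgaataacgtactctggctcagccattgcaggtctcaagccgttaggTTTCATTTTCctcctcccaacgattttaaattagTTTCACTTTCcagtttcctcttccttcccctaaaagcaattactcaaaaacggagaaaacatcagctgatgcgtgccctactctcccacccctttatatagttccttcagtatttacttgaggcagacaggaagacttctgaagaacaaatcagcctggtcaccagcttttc
BST2: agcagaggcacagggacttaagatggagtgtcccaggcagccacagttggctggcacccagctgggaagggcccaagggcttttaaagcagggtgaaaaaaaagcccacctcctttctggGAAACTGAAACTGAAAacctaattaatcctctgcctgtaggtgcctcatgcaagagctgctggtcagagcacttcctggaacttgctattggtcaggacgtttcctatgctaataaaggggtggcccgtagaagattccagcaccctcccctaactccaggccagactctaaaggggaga
The match in ISG20 starts 69 bases before the transcription start. In BST2 a pair of overlapping matches starts 130 and 124 bases before it.

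Stretches of 30 bases around a match are shown for genes of different roles. The search fixed most of the capital letters, so their likeness across genes is not a result. The stretches were chosen after the values were seen, to cover a sensor, an effector kinase, a chemokine, antigen processing genes and a shared promoter.
IFIH1: gagaattcgcTTTCCTTTTCTGTTTCccgc
EIF2AK2: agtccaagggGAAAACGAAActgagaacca
DDX60: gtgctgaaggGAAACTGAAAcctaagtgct
GBP1: aacgaagtacTTTCAGTTTCatattactct
CXCL10: tcatgttttgGAAAGTGAAAcctaattcac
PSMB8: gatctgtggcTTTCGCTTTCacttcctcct
B2M: gagactctaaGAAAAGGAAACTGAAAacgg
DTX3L: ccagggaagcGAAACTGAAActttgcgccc
PARP9: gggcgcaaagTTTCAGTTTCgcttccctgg
The last pair is 1 stretch of DNA (chr3:122564322-122564351) read on opposite strands, since DTX3L and PARP9 are transcribed away from each other. The share of genes with a response element was 7 of 9 among the measured genes whose siLEF1 arrays both lay under both siNT arrays, 9 of 11 among those with both above, and 10 of 15 among those whose groups overlapped.

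**Figure D1:**
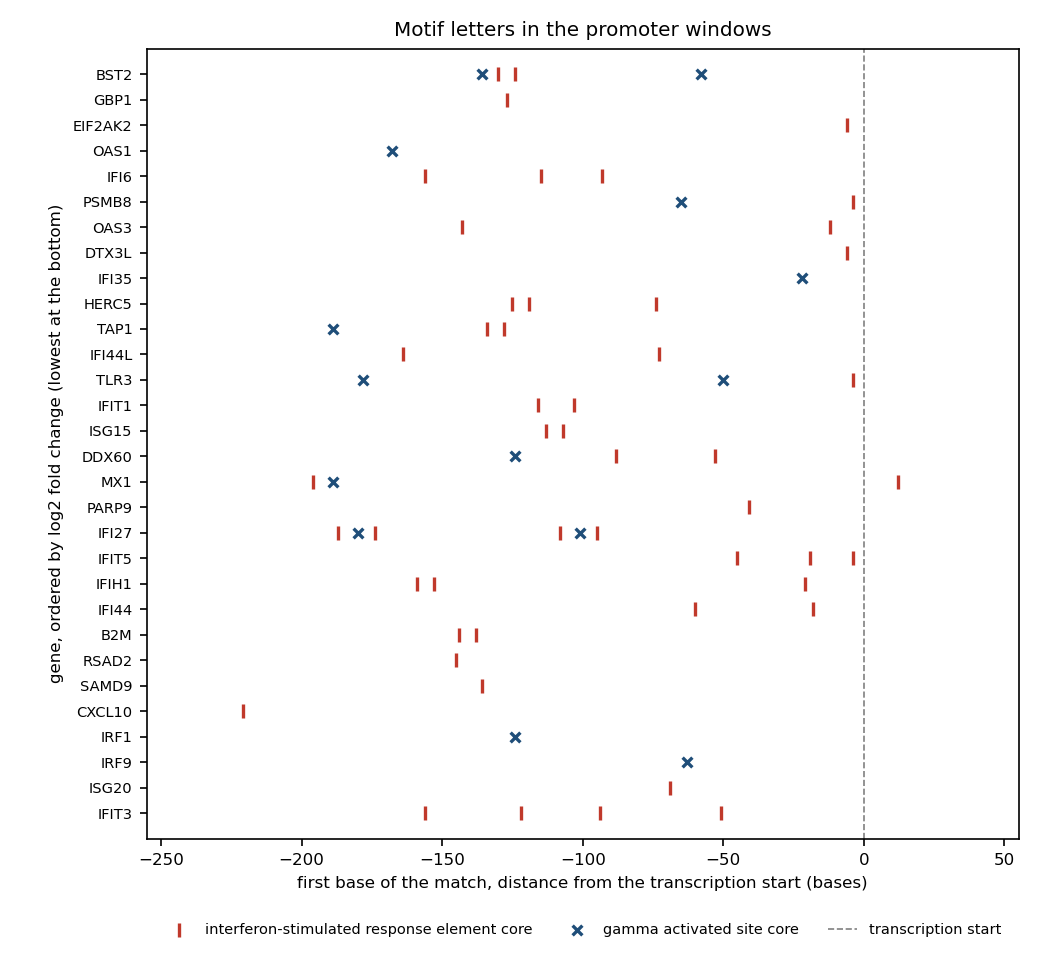
Position of the response element letters (red bars) and of the gamma activated site letters (blue crosses) in the promoter windows of the genes with a match, in bases from the transcription start, with genes ordered by log2 fold change. Most matches lie before the start, where most of each window lies. Only genes with a match are drawn, and OAS2 and IRF7 have no window. Among the genes drawn, the element is found at both ends of the order, in IFIT3 and in BST2.

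Signals are RMA values on the log2 scale, on which a difference of 1 is 2-fold. The medians of the arrays lay between 4.84 and 4.85. The T-cell markers fitted the label, with mean signals of 12 markers between 8.80 and 9.34, against 5.27 to 5.40 for 6 B-cell markers and 4.36 to 4.53 for 7 monocyte or macrophage markers. LEF1, the targeted gene, had a log2 fold change of -0.71 in its brightest probe set (limma adjusted p = 0.191) and was not called. In that probe set and the next one, both siLEF1 arrays lay under both siNT arrays. The next one gave -0.93 (limma adjusted p = 0.141), and the dimmest gave -0.19 with overlapping groups. The siNT replicate 2 array had a Pearson's r over probe sets of 0.979 and 0.980 to the siLEF1 arrays, where siNT replicate 1 had 0.988 and 0.991. Between the siNT arrays it was 0.990, and between the siLEF1 arrays 0.995. Signals near the 5′ end of ACTB mRNA minus those near its 3′ end, a sign of RNA quality, were -1.08 and -1.55 on the siLEF1 arrays and -1.80 and -1.95 on the siNT arrays. For GAPDH the same differences were -0.34 and -0.32 on the siLEF1 arrays and -0.39 and -0.65 on the siNT arrays. The part of RNA quality in the results below was not tested.

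None of the 43 genes passed an adjusted p under 0.05 with a fold change over 2, where 0.207% of the 54613 probe sets (0.183% lower, 0.0238% higher) and 0.329% of genes by their brightest probe set (0.263% lower, 0.0657% higher) did. The smallest adjusted p among them was 0.0829. At an unadjusted p under 0.05 from limma there were 15 genes (34.9%, against 18.5% of all genes), of which 9 were lower in siLEF1 cells (20.9%, against 11.5%) and 6 were higher (14%, against 7%). Only 2 of the 43 genes lay under the array medians on all 4 arrays, against 6087 of the 19775 genes. At the same limma p the share was 41.7% of 12 T-cell markers and 25% of 16 housekeeping genes. It was 0% of 6 B-cell markers. The part of signal level in these shares was not tested. The median log2 fold change of the 43 genes was 0.02, as over all genes, where it was 0.02 too. The groups did not overlap in 26 genes (60.5%, against 54.5% of all genes), with 13 lower and 13 higher (30.2% each, against 26.4% and 28.1%). For 29 of the 43 genes (67.4%, against 85.6% of all genes) the 95% interval of the difference lay within 2-fold in either direction. With the arrays levelled on housekeeping genes, the log2 fold changes moved by -0.15, and IFIT3, TRIM22 and ISG20 then passed as lower, with none passing as higher. In that setting 672 of the 54613 probe sets passed as lower and 41 as higher. Before levelling, 10 of 16 housekeeping genes were higher and 4 lower without overlap (62.5% and 25%, against 28.1% and 26.4% of all genes). Their median log2 fold change was 0.16.

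**Figure D2:**
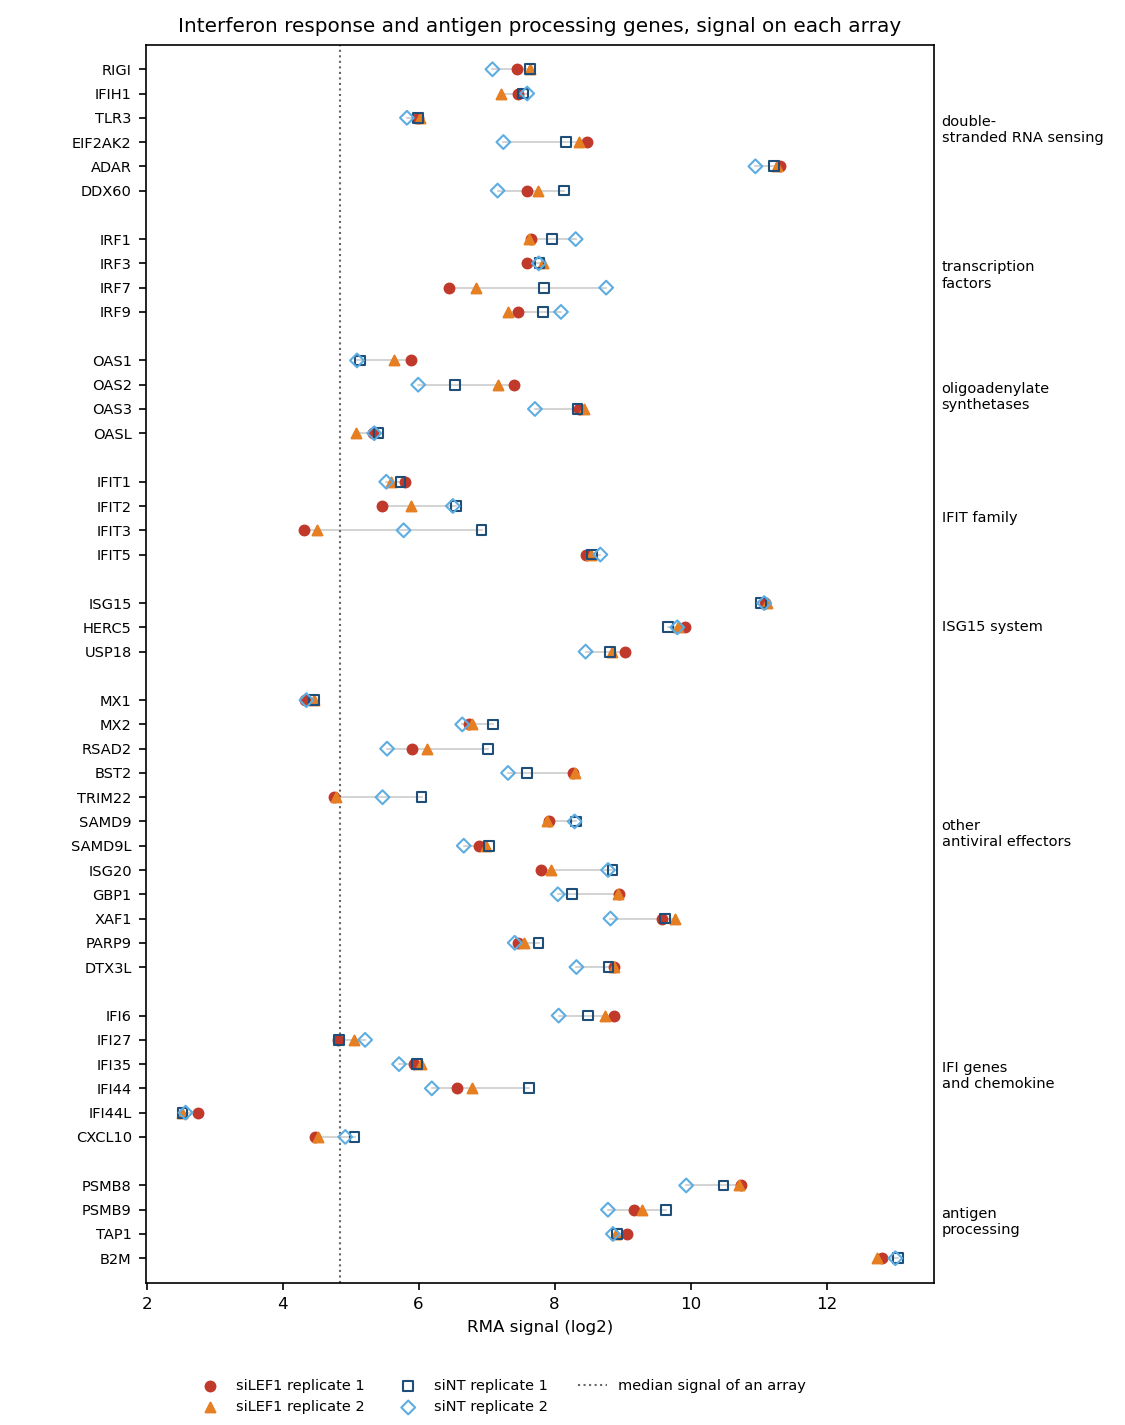
Log2 RMA signal (horizontal axis) of the 43 genes on each array, grouped by role, with filled symbols for siLEF1 and open symbols for siNT replicates. B2M and ISG15 are bright on all arrays, MX1 and IFI44L lie under the array median (dotted line) on all 4, and IFIT3 and IRF7 show the widest separation between the groups.

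**Figure D3:**
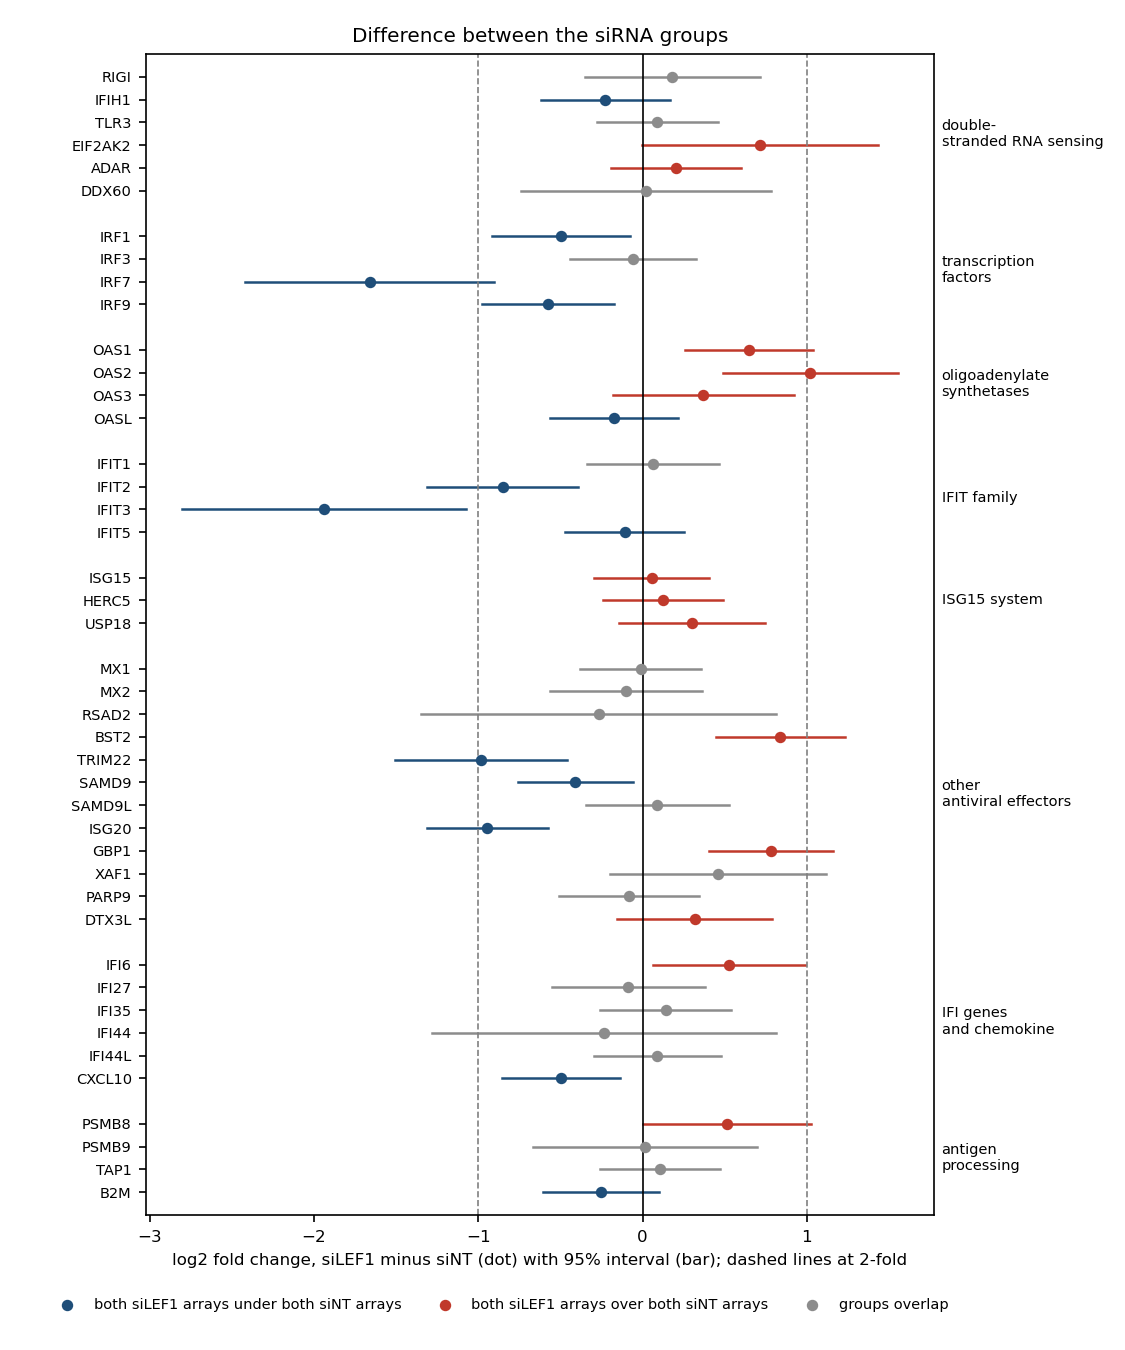
Log2 fold change (siLEF1 minus siNT, dots) with its 95% interval (bars) for each gene, in blue or red where both siLEF1 arrays lie under or over both siNT arrays and in grey where the groups overlap, with dashed lines at 2-fold. IFIT3 is the lowest at -1.94 and OAS2 the highest at 1.02, and both directions occur among the effectors.

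Of the genes for sensing double-stranded RNA, none of 6 passed, and in 5 the 95% interval lay within 2-fold. IFIH1, which encodes the sensor MDA5 of long double-stranded RNA, had signals of 7.46 and 7.21 on the siLEF1 arrays and 7.53 and 7.60 on the siNT arrays. Its siLEF1 arrays lay just under the siNT arrays, with a log2 fold change of -0.23 (95% interval -0.62 to 0.17, limma adjusted p = 0.563). TLR3, the endosomal receptor, was read at 5.98 and 6.02 on the siLEF1 arrays and at 5.995 and 5.83 on the siNT arrays. Here the groups overlapped, and the log2 fold change was 0.09 (95% interval -0.28 to 0.46).

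EIF2AK2 encodes PKR, a kinase that halts translation when it binds double-stranded RNA. Its signals were 8.47 and 8.37 on the siLEF1 arrays and 8.16 and 7.25 on the siNT arrays. Both siLEF1 arrays were the higher ones, yet the siNT replicates differed by more than the groups did (log2 fold change 0.71, 95% interval -0.00 to 1.43, limma adjusted p = 0.323). Without siNT replicate 1 the log2 fold change of EIF2AK2 was 1.17, and without siNT replicate 2 it was 0.26. In such fits the single siNT array is taken to vary as the siLEF1 arrays do. ADAR, which edits adenosines in double-stranded RNA, was bright, with signals of 11.31 and 11.28 on the siLEF1 arrays and 11.23 and 10.95 on the siNT arrays (log2 fold change 0.20, 95% interval -0.19 to 0.60). DDX60, a helicase that promotes RIG-I signaling, had a log2 fold change of 0.02, with the siNT arrays at 8.14 and 7.16 on either side of both siLEF1 arrays.

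RIGI encodes the sensor of short double-stranded RNA with a 5′ phosphate, and its 3 probe sets did not give 1 picture. The brightest read 7.45 and 7.64 on the siLEF1 arrays and 7.64 and 7.09 on the siNT arrays, with a log2 fold change of 0.18 (95% interval -0.35 to 0.71, limma adjusted p = 0.750). The next one read 5.87 and 5.90 on the siLEF1 arrays and 6.61 and 6.76 on the siNT arrays. In that probe set the groups were separate, with a log2 fold change of -0.80 (limma adjusted p = 0.101), which did not pass. The dimmest gave -0.11, so the direction of RIGI depends on the probe set. The dimmer probe sets of IFIH1 (0.17 and 0.05), of TLR3 (0.21 and -0.01) and of EIF2AK2 (0.24 and -0.05) did not all share the sign of the brightest either.

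Of the other sensors and adaptors of nucleic acid sensing, none of 17 genes passed, and their median log2 fold change was 0.10. TRIM25, a ubiquitin ligase that acts on RIG-I, had the smallest p, with signals of 8.99 and 9.60 on the siLEF1 arrays and 8.59 and 7.82 on the siNT arrays (log2 fold change 1.09, limma adjusted p = 0.193). CGAS and AIM2, which sense DNA, had log2 fold changes of -0.51 and -0.50, and the RNA receptor gene TLR7 had one of 0.48. The signals of CGAS and AIM2 lay under the array medians on all 4 arrays, and those of TLR7 on 3, where a change can be missed.

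The interferon genes themselves were dim. All 9 measured ligand genes lay under the median on all 4 arrays, and none passed. IFNB1, the interferon gene that sensing in most cells switches on first, was read at 3.37 and 3.19 on the siLEF1 arrays and at 3.40 and 2.97 on the siNT arrays (log2 fold change 0.09), and it lies outside the rule for naming genes. IFNA2 had a log2 fold change of 0.38, IFNG one of -0.45, IFNA1 one of -0.22 and IFNK one of 0.11.

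The factor genes were all below 0 in value. IRF7, which amplifies the interferon response, had signals of 6.45 and 6.84 on the siLEF1 arrays and of 7.85 and 8.76 on the siNT arrays. The groups were clearly apart, and the siNT replicates differed from each other by 0.91. Its log2 fold change was -1.66, a 3.16-fold lower level (SE 0.31, limma adjusted p = 0.103), which did not pass. IRF9, the DNA-binding partner in the interferon-activated complex, had signals of 7.46 and 7.32 against 7.83 and 8.09 on the siNT arrays, with a log2 fold change of -0.57 (limma adjusted p = 0.197). IRF1, a factor induced mainly by interferon gamma, had signals of 7.65 and 7.62 against 7.96 and 8.31, with a log2 fold change of -0.50 (limma adjusted p = 0.259), and its second probe set gave -0.14.

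IRF3 is present in most cells before any signal and is activated by phosphorylation. Its signals of 7.60 and 7.84 on the siLEF1 arrays and 7.78 and 7.77 on the siNT arrays overlapped (log2 fold change -0.06, 95% interval -0.44 to 0.33). Without siNT replicate 1, IRF7 had a log2 fold change of -2.12, and without siNT replicate 2 the value was -1.21. Among 19 genes for interferon receptors, their kinases and other factors none passed, with a median log2 fold change of -0.02. IFNLR1, a subunit of the interferon lambda receptor, had a log2 fold change of -0.68, the kinase gene JAK2 one of -0.57 and IRF8 one of -0.47, while the phosphatase gene PTPN2 had 0.59.

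The oligoadenylate synthetases make a messenger that activates an RNA-cleaving enzyme when double-stranded RNA is bound. Of the 4 genes none passed. OAS2 was read at 7.41 and 7.17 on the siLEF1 arrays and at 6.54 and 5.99 on the siNT arrays. Both siLEF1 arrays were higher, with a log2 fold change of 1.02 (SE 0.22, limma adjusted p = 0.127), and its other probe sets had values of 0.41 and 0.24. Without siNT replicate 1 OAS2 had a log2 fold change of 1.29, and without siNT replicate 2 the value was 0.75. OAS1 had signals of 5.89 and 5.63 against 5.14 and 5.09, also without overlap (log2 fold change 0.65, limma adjusted p = 0.160), and its second probe set gave 0.51. OAS3 had signals of 8.36 and 8.43 against 8.34 and 7.71 (log2 fold change 0.37, 95% interval -0.18 to 0.92), and its dim second probe set gave -0.12. OASL, a relative without synthetase activity, had a log2 fold change of -0.17.

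The IFIT genes encode proteins that bind viral RNA, and IFIT1, IFIT2 and IFIT3 are induced together in many cells. Here IFIT3 was read at 4.32 and 4.51 on the siLEF1 arrays and at 6.93 and 5.78 on the siNT arrays. Its groups were separate, but the siLEF1 signals lay under the array medians and the siNT replicates differed by 1.15, so the size of the change is uncertain. The log2 fold change was -1.94, a 3.84-fold lower level (SE 0.36, limma adjusted p = 0.0986). In the second probe set of IFIT3 it was -0.54 (limma adjusted p = 0.319).

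IFIT2 had signals of 5.46 and 5.89 on the siLEF1 arrays and 6.55 and 6.50 on the siNT arrays, again without overlap (log2 fold change -0.85, limma adjusted p = 0.135). Its dimmer probe set gave -0.10. IFIT1 did not follow them, with signals of 5.80 and 5.59 on the siLEF1 arrays and 5.73 and 5.52 on the siNT arrays (log2 fold change 0.07, 95% interval -0.34 to 0.47). IFIT5, which is bright, had a log2 fold change of -0.11 (95% interval -0.47 to 0.25). Without siNT replicate 1 IFIT3 had a log2 fold change of -1.37, and without siNT replicate 2 the value was -2.51.

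ISG15 encodes a ubiquitin-like protein, HERC5 the ligase that attaches it and USP18 the protease that removes it. ISG15 was among the brightest genes, with signals of 11.10 and 11.13 on the siLEF1 arrays and 11.03 and 11.08 on the siNT arrays. The siLEF1 arrays were higher by a narrow margin (log2 fold change 0.05, 95% interval -0.30 to 0.40). HERC5 had signals of 9.91 and 9.81 against 9.67 and 9.80 (log2 fold change 0.12), and USP18 had 9.03 and 8.84 against 8.81 and 8.45 (log2 fold change 0.30). None of the 3 passed, and all 3 intervals lay within 2-fold. ISG15 and HERC5 were below 0 when the arrays were centred on housekeeping genes.

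Among 12 other antiviral effectors none passed, and 3 were lower and 3 higher without overlap (25% each, against 26.4% and 28.1% of all genes). ISG20, an exonuclease gene for single-stranded RNA, had the smallest p of all 43 genes. It was read at 7.79 and 7.95 on the siLEF1 arrays and at 8.85 and 8.79 on the siNT arrays, so that replicates lay close together and the groups far apart. The log2 fold change was -0.95 (standard error, SE, 0.15, limma adjusted p = 0.0829), and the second probe set of ISG20 gave -0.83 (limma adjusted p = 0.0957). It lay under the threshold of p when only 1 probe set per gene was tested (limma adjusted p = 0.0487), but its fold change stayed under 2. TRIM22, a ubiquitin ligase that limits retroviral transcription, had signals of 4.75 and 4.79 against 6.04 and 5.47 on the siNT arrays (log2 fold change -0.99, limma adjusted p = 0.131), with siLEF1 signals under the array medians. SAMD9, which binds viral RNA and restricts poxviruses, had signals of 7.91 and 7.88 against 8.32 and 8.29 (log2 fold change -0.41, limma adjusted p = 0.260). Its neighbour and paralog SAMD9L had a log2 fold change of 0.09 with overlapping groups.

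BST2 encodes tetherin, which holds budding virus on the cell surface. Its signals were 8.27 and 8.31 on the siLEF1 arrays and 7.59 and 7.31 on the siNT arrays. The siLEF1 arrays were higher by more than the spread of either group, with a log2 fold change of 0.84 (SE 0.16, limma adjusted p = 0.109), which did not pass. GBP1, a GTPase gene that interferon gamma induces strongly, was read at 8.95 and 8.93 on the siLEF1 arrays and at 8.26 and 8.05 on the siNT arrays. Its log2 fold change was 0.78 (SE 0.16, limma adjusted p = 0.111). The next probe sets of GBP1 gave 0.90 and 0.86, while the fourth, which is dim, gave -0.09.

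RSAD2, the gene of viperin, had siNT signals of 7.02 and 5.54 that enclosed both siLEF1 signals, 5.90 and 6.12. Its second probe set, nearly as bright, was lower without overlap (log2 fold change -0.38, limma adjusted p = 0.423). MX1 and MX2 encode dynamin-like GTPases, and their log2 fold changes were -0.01 and -0.10 with overlapping groups. MX1 lay under the median on all 4 arrays. XAF1, an apoptosis factor gene, was read at 9.59 and 9.77 on the siLEF1 arrays and at 9.62 and 8.82 on the siNT arrays (log2 fold change 0.46). PARP9 and DTX3L, whose proteins act as a complex and whose promoter element is the shared one shown above, had log2 fold changes of -0.08 and 0.32.

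Of the IFI genes, IFI6, which encodes a mitochondrial and endoplasmic reticulum protein, was higher without overlap, with signals of 8.87 and 8.74 against 8.49 and 8.06 (log2 fold change 0.53, limma adjusted p = 0.270). IFI44 had signals of 6.56 and 6.79 on the siLEF1 arrays, between the siNT signals of 7.63 and 6.19. IFI35, IFI27 and IFI44L had log2 fold changes of 0.14, -0.09 and 0.09, and all of their groups overlapped. CXCL10, a chemokine gene, was lower without overlap, at 4.47 and 4.51 against 5.06 and 4.92 (log2 fold change -0.50, limma adjusted p = 0.208), with all signals near the array medians.

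Of 36 other interferon targets measured, 1 passed as lower and none as higher (0.263% and 0.0657% of all genes did), while 9 were lower and 9 higher without overlap (25% each, against 26.4% and 28.1% of all genes). CXCL11, which encodes a chemokine of the same receptor as CXCL10, was read at 2.78 and 2.43 on the siLEF1 arrays and at 4.61 and 5.28 on the siNT arrays. Its log2 fold change was -2.34 (SE 0.26, limma adjusted p = 0.0456), and it passed. Both siLEF1 signals lay under the lower quartile of their arrays, so the size of the change is uncertain. The call of CXCL11 was lost without siLEF1 replicate 1, siLEF1 replicate 2 or siNT replicate 2 (adjusted p = 0.684, 0.542 and 0.120 from limma), with log2 fold changes of -2.51, -2.17 and -2.003. It was lost as well in an F test without moderated variances (adjusted p = 0.608). Read by a probe set whose ID does not end in _x_at or _s_at, CXCL11 had a smaller log2 fold change of -1.37 and passed (limma adjusted p = 0.0493). LAMP3, a lysosomal membrane protein gene of mature dendritic cells, had signals of 10.10 and 9.82 on the siLEF1 arrays and 8.62 and 7.92 on the siNT arrays. It was higher in both arrays, with a log2 fold change of 1.69 (limma adjusted p = 0.0775), which did not pass. LAMP3 passed as higher in 6 alternatives, with limma adjusted p of 0.00747 with the replicate number as a block, 0.0317 with crossed numbers, 0.0363 with housekeeping centring, 0.0487 with 1 probe set per gene, 0.0371 with the mean over probe sets and 0.0406 without siNT replicate 1. GBP2, a relative of GBP1, had a log2 fold change of -0.73, and TRIM14, an adaptor gene, had one of 1.14. The mean over all probe sets of GBP2 was -1.32 and passed (limma adjusted p = 0.0180). TRIM14 passed with the replicate number as a block (limma adjusted p = 0.0456) and, at 1.4998, without siNT replicate 1 (limma adjusted p = 0.0408), and it had a value of 0.47 without probe sets ending in _x_at or _s_at. The median log2 fold change of these 36 genes was 0.00.

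PSMB8 and PSMB9 encode subunits that replace constitutive ones in the immunoproteasome, TAP1 a subunit of the transporter that carries peptides into the endoplasmic reticulum, and B2M the light chain of class I molecules. None of the 4 passed. B2M was the brightest of the 43 genes, with signals of 12.82 and 12.74 on the siLEF1 arrays and 13.05 and 13.01 on the siNT arrays. The siLEF1 arrays were lower by a small margin (log2 fold change -0.25, 95% interval -0.60 to 0.10), and the second probe set gave -0.32. PSMB8 was read at 10.74 and 10.71 on the siLEF1 arrays and at 10.48 and 9.93 on the siNT arrays (log2 fold change 0.51, limma adjusted p = 0.317). For PSMB9 the siNT signals of 9.64 and 8.78 enclosed the siLEF1 signals of 9.17 and 9.28. TAP1 had a log2 fold change of 0.10 (95% interval -0.26 to 0.47) with overlapping groups.

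Of 29 other antigen processing genes none passed. The class I heavy chain genes were all lower without overlap, in 5 of 5 genes measured, against 26.4% of all genes. They are a part of the list of 29, in which 11 genes were lower and 11 higher without overlap (37.9% each). HLA-B had signals of 10.86 and 10.91 on the siLEF1 arrays and 11.68 and 11.73 on the siNT arrays, with replicates close together (log2 fold change -0.82, SE 0.15, limma adjusted p = 0.0952). HLA-E, which presents leader peptides, had 9.31 and 9.45 against 10.17 and 10.35 (log2 fold change -0.88, limma adjusted p = 0.0956). HLA-C, HLA-F and HLA-G had log2 fold changes of -0.55, -0.53 and -0.36, with adjusted p of 0.195, 0.187 and 0.308 from limma. These genes are close paralogs and their probe sets may read more than 1 of them, so they are not independent, and HLA-C, HLA-F and HLA-G lie outside the rule for naming genes and were named after their values were seen.

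In the rest of this list the values went both ways. TAPBPL, which edits peptides on class I molecules, had a log2 fold change of -0.68 (limma adjusted p = 0.152), and HLA-DMA, a class II chaperone gene, had one of -0.57. The list had a median of 0.04, with 11 genes lower and 11 higher without overlap. For comparison, 26.4% of all genes were lower and 28.1% higher without overlap.

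**Figure D4:**
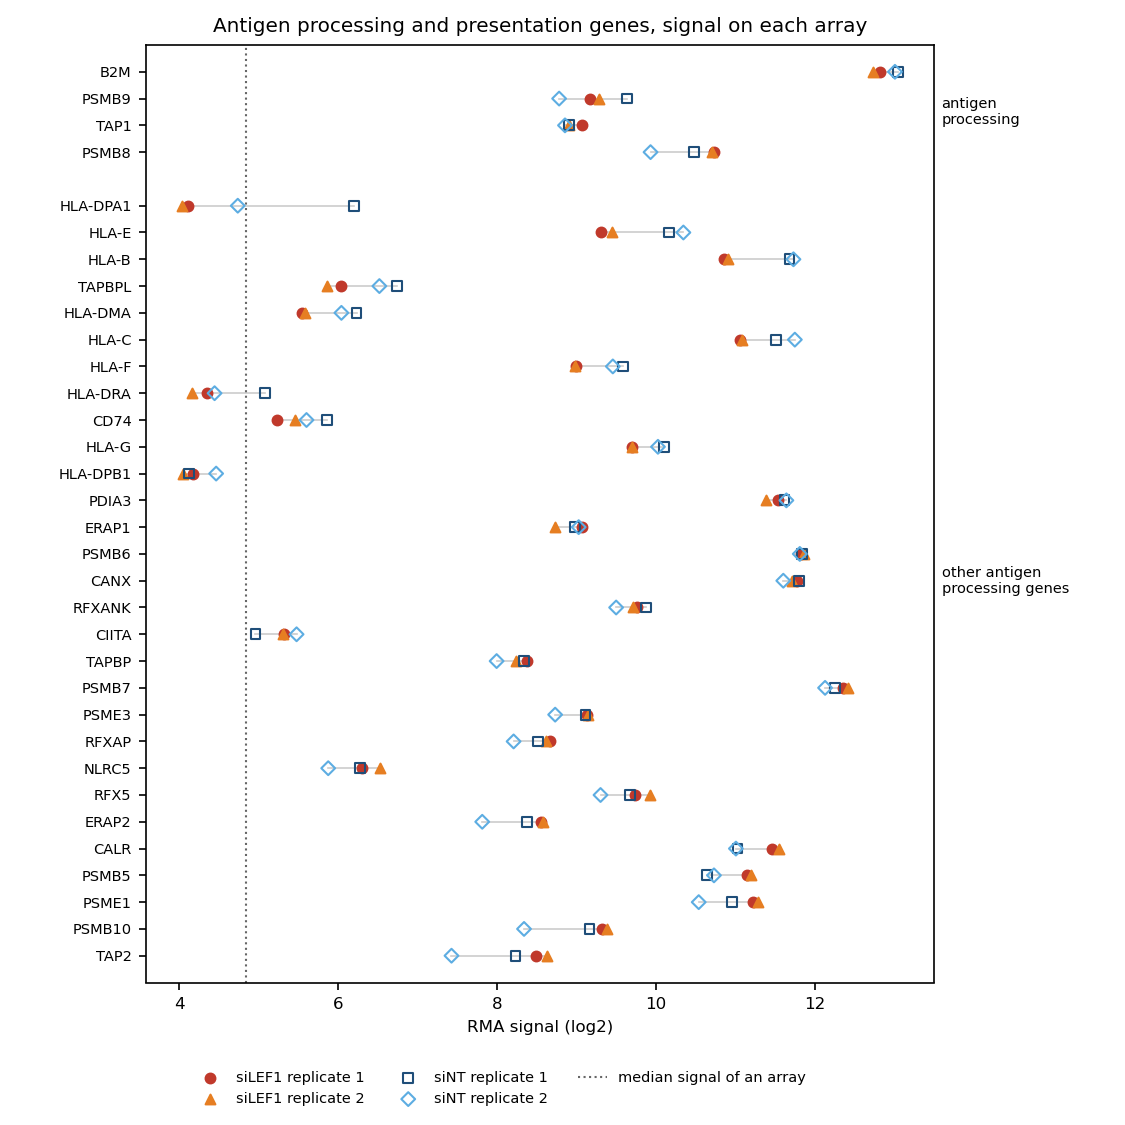
Log2 RMA signal (horizontal axis) of the 4 antigen processing genes of the list and of 29 related genes on each array, in order of log2 fold change within each part, with filled symbols for siLEF1 and open symbols for siNT replicates. The heavy chain genes HLA-B, HLA-C, HLA-E, HLA-F and HLA-G have both siLEF1 arrays under both siNT arrays, while PSMB8 has them above. Of the 29 related genes 11 have them under and 11 above (37.9% each, against 26.4% and 28.1% of all genes).

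The siNT replicates differed from each other in these genes more than the siLEF1 replicates did. The median absolute difference between replicates was 0.28 on the siNT arrays and 0.13 on the siLEF1 arrays, where it was 0.21 and 0.12 over all genes. In 34 of the 43 genes (79.1%) siNT replicate 2 was lower than replicate 1, against 51% of all genes, with a median difference of -0.21. The same held for 12 of 12 T-cell markers, with a median of -0.48, and over all genes the median was -0.01. IRF7 went the other way, with a difference of 0.91, and RSAD2 and IFI44 had the widest gaps, of -1.48 and -1.43. In 22 of the 43 genes (51.2%) the siNT replicates were farther apart than the group means, much as in 49.8% of all genes.

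The balance of directions moved with the siNT array used. Without siNT replicate 2, 20 of the 43 genes were lower without overlap (46.5%, against 37% of all genes) and 13 were higher (30.2%, against 40.7%), and the median of the log2 fold changes was -0.06. With siNT replicate 1 left out instead, 14 genes were lower (32.6%, against 39% of all genes) and 26 higher (60.5%, against 42.4%), and the median was 0.13. With 1 siNT array groups overlap less often, so these counts are read against all genes on the same 3 arrays, where the median was 0.02 in both cases.

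**Figure D5:**
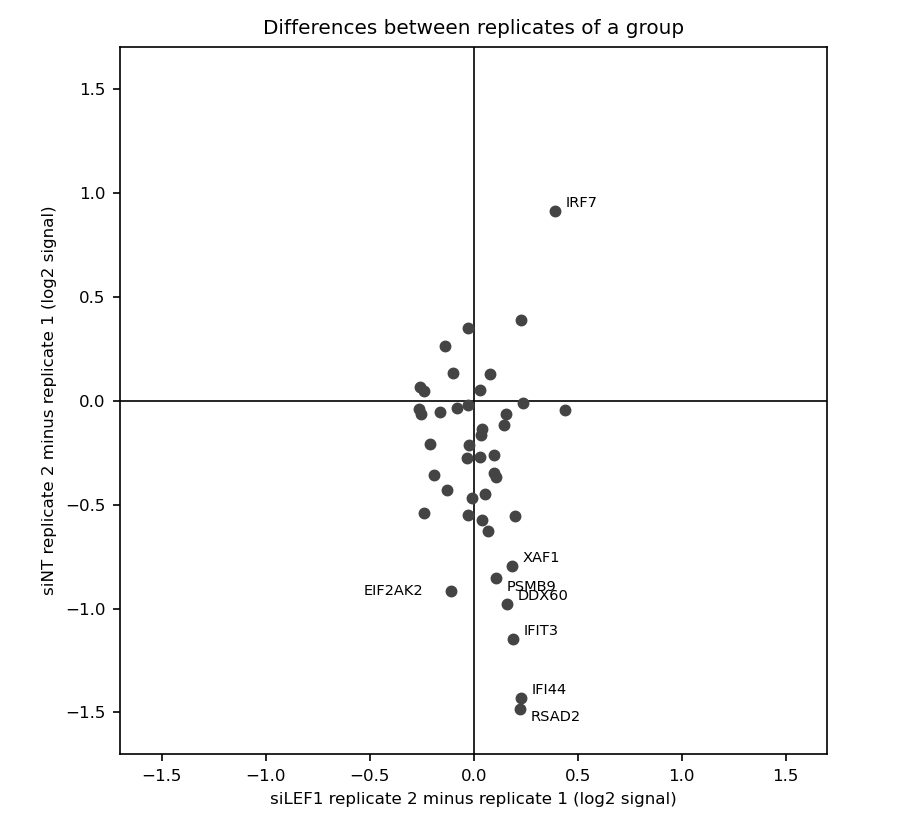
Difference between the replicates of each group for the 43 genes, as replicate 2 minus replicate 1 on the log2 scale, in siLEF1 cells (horizontal axis) and in siNT cells (vertical axis), with genes named where the siNT difference is over 0.7. The points spread along the vertical axis, mostly below 0, from IRF7 at 0.91 to RSAD2 at -1.48.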

How the data were processed

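Jurkat cells transfected with LEF1 siRNA or non-targeting siRNA were measured on 4 Affymetrix HG-U133 Plus 2.0 arrays, 2 per group, with groups and replicate numbers taken from the sample labels. Signal extraction by the authors used Expression Console (1.1, per the submitters' processing notes) with RMA, and they deposited log2 values of 54675 probe sets. RMA equalizes the distributions of the arrays, so a shift of the whole array would not be seen. After 62 control probe sets were left out, siLEF1 minus siNT was tested for 54613 probe sets with limma 3.58.1 in R 4.3.3 (2-sided, Benjamini-Hochberg adjustment over all of them), and a gene passed with a fold change over 2 and an adjusted p under 0.05. Residual degrees of freedom were 2, and eBayes contributed 4.30 more. Intervals are 95% and not adjusted. The fit was run on simulated data with independent normal noise, as limma assumes. That run does not test for effects of RNA quality or of single arrays. The number of arrays limits the precision.

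Symbols of the platform annotation were updated through RefSeq by Entrez number (19735 of 19777 matched). The members and lists were chosen with earlier results of these data known. Genes of the list could all be named, and of each other list up to 4 with the smallest p. Non-transfected cells were not analysed here. Alternatives tried were a minimum mean log2 signal of 6, other variance settings, a replicate block, other centring, other choices of probe set, other fold thresholds and each array left out in turn.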

Additional observations from a re-analysis of the deposited data

How the results depend on the processing

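The number of arrays limits the precision, since the 95% interval reached 2-fold in 14 of the 43 genes, and in genes under the array median a change can be missed. The 43 genes had no call in either direction with the filter at a mean log2 signal of 6 (32 genes left), with other variance settings, with centring on the array median, with other choices of probe set and with other fold thresholds. Centring on housekeeping genes called 3 lower, where it called 672 lower and 41 higher over all 54613 probe sets. It moved the median of all probe sets from 0.04 to -0.11. It left 7 higher without overlap, and the share over all genes was not computed for that setting. The replicate block called 2 lower and 1 higher (IRF7, IFIT3 and OAS2), where it called 977 lower and 120 higher over all 54613 probe sets. The replicate numbers are not known to pair the arrays, since deviations of same-numbered arrays correlated at -0.15 over probe sets. With crossed numbers, chosen after seeing the data, the block called 2 lower, where it called 763 lower and 159 higher over all probe sets. Leaving out 1 array gave 14 to 20 genes lower without overlap (32.6% to 46.5%, against 34.7% to 39% of all genes). It gave 13 to 26 higher without overlap (30.2% to 60.5%, against 37% to 42.4% of all genes).

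Over the whole array the calls were 100 lower and 13 higher, and they became 4 and 1 with the filter, 0 and 0 without moderation (4393 at an unadjusted p under 0.05), 977 and 120 with the replicate block, 763 and 159 with crossed numbers, 672 and 41 with housekeeping centring, 171 and 29 with 1 probe set per gene and 172 and 25 with the mean over probe sets. Without siLEF1 replicate 1, siLEF1 replicate 2 or siNT replicate 2 limma called 0, with 3688, 4623 and 6232 at an unadjusted p under 0.05. With trend and robust hyperparameters 20 were higher. Leaving out 1 array gave 0 to 1287 lower and 0 to 595 higher.

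Of 66 single genes recomputed, 46 kept their direction in every alternative run. With housekeeping centring the log2 fold changes were -0.060 for TLR3, -0.13 for DDX60, -0.085 for IFIT1, -0.10 for ISG15, -0.027 for HERC5, -0.061 for SAMD9L, -0.0098 for IFI35, -0.060 for IFI44L, -0.13 for PSMB9, -0.046 for TAP1 and -0.045 for IFNK. Without probe sets ending in _x_at or _s_at they were -0.11 for RIGI, 0.019 for PARP9 and -0.033 for TLR7, and with the mean over probe sets -0.24 for RIGI. Leaving out 1 array gave -0.10 to 0.46 for RIGI, -0.47 to 0.51 for DDX60, -0.18 to 0.063 for IRF3, -0.040 to 0.17 for IFIT1, -0.085 to 0.059 for MX1, -0.33 to 0.12 for MX2, -1.01 to 0.47 for RSAD2, -0.094 to 0.27 for SAMD9L, -0.26 to 0.093 for PARP9, -0.28 to 0.11 for IFI27, -0.95 to 0.48 for IFI44, -0.029 to 0.21 for IFI44L and -0.41 to 0.44 for PSMB9. Without siNT replicate 2 the value of PSMB8 was 0.24, of IFI6 0.31 and of TRIM25 0.70, and without siNT replicate 1 that of PSMB8 was 0.79. With the mean over probe sets EIF2AK2 was at 0.30, OAS2 at 0.56, IFIT2 at -0.48, IFIT3 at -1.24, TRIM25 at 0.60, CGAS at -0.22, IFNLR1 at -0.24, PTPN2 at 0.35 and JAK2 at -0.35, and without _x_at and _s_at probe sets JAK2 was at -0.23 and CGAS at -0.00075. TRIM25 passed with crossed numbers. The cause was not tested.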
